A study of Rattus norvegicus with 24 samples.

Results

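The genes of the extracellular matrix carried by the custom rat array were examined in skin explants that had been exposed to lymphocytes of the same or of another strain. Of 8453 non-control probes, 33 probes from 28 genes had a gene name that begins as those of collagens, laminins, fibronectin, fibulins, elastin, SPARC, lysyl oxidases, small proteoglycans, thrombospondins, periostin or nidogens do, and were not listed by the study among the genes of the major histocompatibility complex or the natural killer complex. The name pattern alone matched 35 probes. Both *Col11a2* probes were left out because that gene is listed there, 1 of them by its symbol only. *Col4a3bp*, a ceramide transfer protein, was matched by name without being a matrix protein, which leaves 27 matrix genes.

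Collagens are triple-helical proteins. The fibrillar types bear the tension of the dermis, while laminins, nidogens and type IV and XVIII collagens form the basement membrane under the epidermis and around vessels. Lysyl oxidases cross-link collagen and elastin, and matricellular proteins such as periostin, SPARC and thrombospondins bind to the fibers and to cells. Proteoglycan 4, or lubricin, encoded by *Prg4*, is best known as the lubricant of joint surfaces.

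The samples were skin explants from the paws of 12 male BN rats aged 15 weeks. From each rat, 1 explant received 1000000 BN lymphocytes (syngeneic) and another the same number of PVG lymphocytes for 3 days (allogeneic, a mismatch at major and minor histocompatibility antigens). Both kinds of lymphocytes had spent 7 days in a mixed lymphocyte reaction with BN splenocytes irradiated with 25 Gy. The RNA of both explants was hybridized together to 2 two-color arrays with exchanged dyes, so that 24 arrays gave 12 replicates and n is 12 rats throughout. Both groups thus had added lymphocytes, an explant had no blood supply, and explants in medium alone were not analysed here. Per the methods, lymphocytes that had not entered or attached to the skin were removed by washing before the explants were frozen. The study rarely saw infiltrating lymphocytes in sections. By PCR on a part of these explants, however, it found RNA of the T cell gene *Cd3z* higher in allogeneic than in syngeneic and medium explants. The skin was measured together with the lymphocytes that remained, and in such samples fewer cells of a type and less RNA per cell cannot be told apart.

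The probes that stand for the main findings are shown first. Each is a 60-base oligonucleotide of the array, given 5' to 3' in lower case, since the whole oligonucleotide is the target. The first is that of *Prg4*, which had the largest difference of the 28 genes, and *Postn* had the largest in the other direction. Each of these 2 genes was measured by 1 probe with 1 spot per array, and only 5 of the 28 genes had several probes. *Col8a1*, *Loxl2*, *Lamb1* and *Lamc1* are shown because their ratios differed between the dye orientations.
Prg4: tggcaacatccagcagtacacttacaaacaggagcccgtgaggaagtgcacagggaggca
Postn: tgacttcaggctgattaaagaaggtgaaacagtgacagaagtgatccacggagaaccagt
Col8a1: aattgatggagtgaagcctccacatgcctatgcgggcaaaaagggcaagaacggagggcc
Loxl2: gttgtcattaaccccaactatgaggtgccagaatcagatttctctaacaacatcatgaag
Lamb1: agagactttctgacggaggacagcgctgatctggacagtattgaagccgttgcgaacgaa
Lamc1: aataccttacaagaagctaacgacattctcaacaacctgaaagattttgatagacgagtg

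Per the file headers, the probes were placed on the rn3 build of the rat genome. The *Prg4* probe lies at chr13:64769078-64769137 on the minus strand, the *Col8a1* probe at chr11:43791000-43791059 and the *Loxl2* probe at chr15:50083770-50083829, both on the plus strand. The *Postn* probe spans chr2:143510755-143511791 (plus), the *Lamb1* probe chr6:49181266-49183037 (plus) and this *Lamc1* probe chr13:68265455-68266503 (minus). These 3 probes cover far more genome than their own length and therefore cross at least 1 intron. Of the 33 probes, 32 had a gene with a RefSeq chromosome, and 31 of those were placed on it. The exception was *Lamb2*, whose probe is placed on an unassigned part of chromosome 16 while RefSeq has the gene on chromosome 8, so that the values of *Lamb2* below depend on the name given in the file. The only *Col12a1* probe is on the chromosome of its gene, but just 26 of its 60 bases are covered by the given place (chr8:84660813-84660838, minus).

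Among the 28 genes, 18 were higher and 2 were lower in the samples labelled allogeneic, and 8 were not called. The sign of each ratio was taken from the dye labels, with the allogeneic sample in the numerator. The methods describe the dyes in the same way, but this direction is opposite to the one the study gives for its regulated genes, both on the arrays and for nearly all genes it also measured by PCR. That PCR was run on a part of the same pairs of explants and did not depend on the dyes of the arrays. *Aif1*, with a mean of -1.27 here, was among the genes that the PCR found higher in the allogeneic explants. Which sample each dye carried could not be settled from the files. All directions below refer to the labels, and every one of them would turn if the dyes were exchanged in the labels. A gene was called at an adjusted p under 0.05 by limma, with Benjamini-Hochberg adjustment over all 7229 genes of the array, and several probes of a gene were averaged. Of all genes, 16.3% were called, 8.66% higher and 7.61% lower. Of all probes, 17.3% were called, compared with 24 of the 33 probes here, of which 22 were higher. The median log2 ratio was 0.27 over the 28 genes and 0.01 over all genes.

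**Figure D1:**
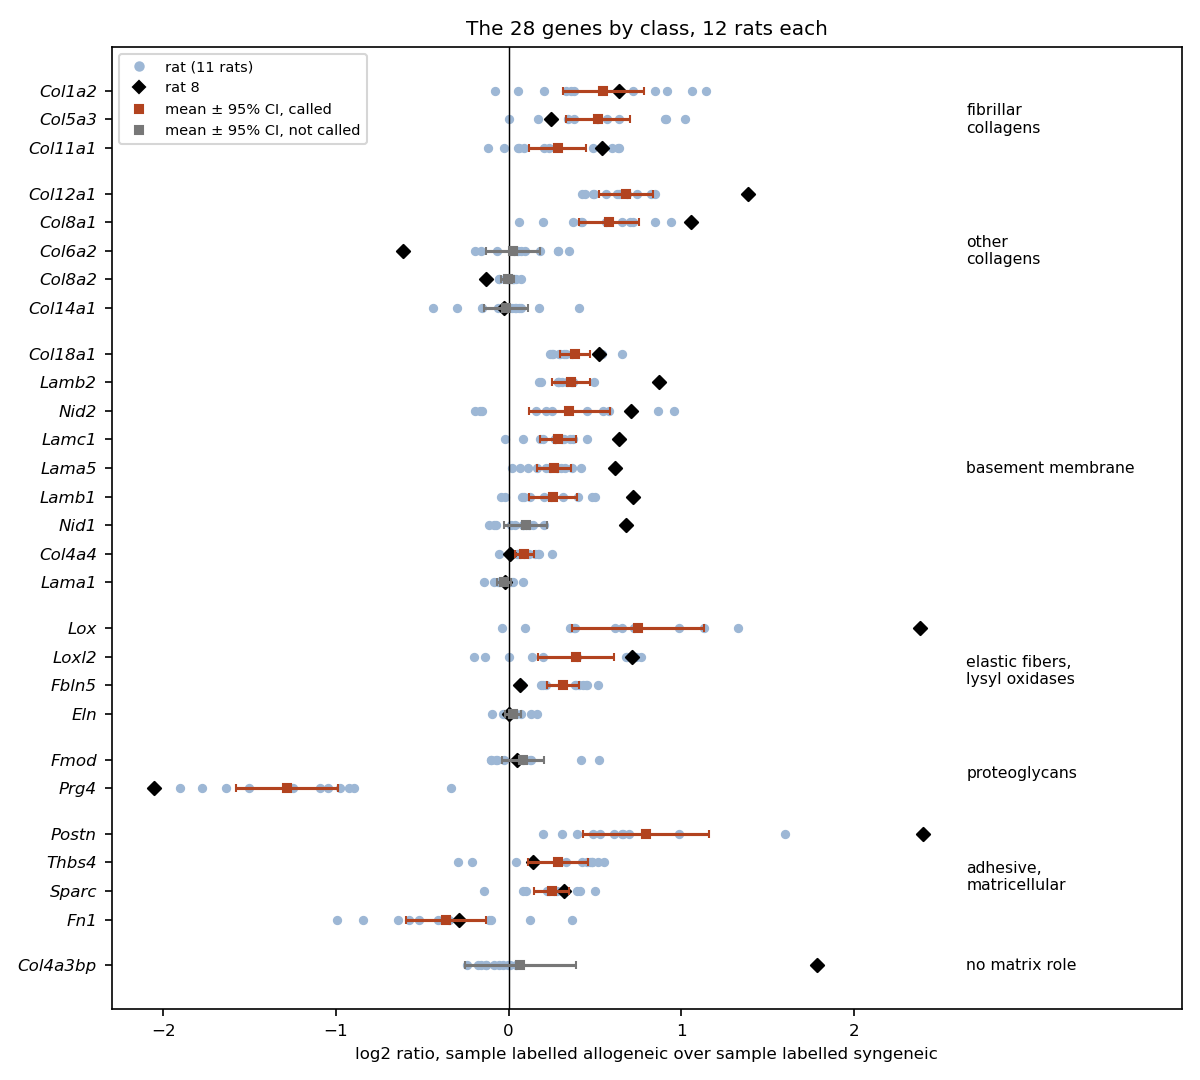
Log2 ratio of the sample labelled allogeneic over the sample labelled syngeneic for the 28 genes, ordered by class. Each blue point is 1 of 11 rats, the black diamond is rat 8, and the square with its bar is the mean of 12 rats with the 95% confidence interval of the limma fit. *Prg4* lies below 0 in all 12 rats, while *Postn*, *Col12a1*, *Col8a1* and *Col18a1* lie above 0 in all 12.

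Rat 8 and array 1 of rat 10 stood apart over the whole array. The ratios of rat 8 correlated with the mean of the other rats at 0.21, compared with 0.48 to 0.81 for the other rats, although its own 2 arrays correlated at 0.94. Array 1 of rat 10 had a median intensity of 6668 in Cy3 and 25642 in Cy5 and correlated with the second array of that rat at 0.13. The 2 arrays of rats 2, 3 and 6 also correlated at only 0.30, 0.20 and 0.26, and those of the remaining rats at 0.62 to 0.94. Without rat 8, 20 of the 28 genes were called (17 higher, 3 lower), and without array 1 of rat 10 again 20 (18 higher, 2 lower). Leaving out both gave 21 (18 higher, 3 lower). The third lower gene was *Col4a3bp*, which had a ratio of 1.78 in rat 8 and a mean of -0.088 in the other 11 rats (adjusted p = 0.031). None (0) of the 20 called genes had a mean ratio that moved by more than 1.5 times without rat 8, although rat 8 was the rat farthest from 0 in 9 of the 20. The only keratinocyte marker of the list that was measured, *Tp63*, exceeded the background clearly in both channels of all 24 arrays, and so did *Col1a2*. The mean ratio of *Tp63* was 0.30 with all rats, not called, and 0.11 without rat 8.

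*Prg4* was lower in all 12 samples labelled allogeneic. The study listed *Prg4* among its most strongly regulated genes on these same arrays, but as higher in the allogeneic explants. The direction here follows the labels, with the doubt given above. The levels, as normalized log2 intensity, ranged from 10.73 to 11.65 (median 11.14) in the samples labelled allogeneic and from 11.71 to 13.21 (median 12.46) in those labelled syngeneic. The 2 groups did not overlap, which was the case for 0.124% of all genes and for no other of the 28. As the study had already named *Prg4* from these same arrays, its size and rarity here are no independent support. The log2 ratio ranged from -2.06 in rat 8 to -0.34 in rat 11 with a median of -1.17. The mean was -1.28 ± 0.50 (SD, n = 12), which is a level 2.43-fold higher in the samples labelled syngeneic (limma adjusted p = 1.01e-04). The mean without rat 8 was -1.21. By slide, the means were -1.12, -1.84 and -0.89, and the 4 rats of slide 2 (-2.06 to -1.64) all lay below the 8 rats of the other slides (-1.50 to -0.34). Whether the slides differ was not tested. The arrays with the allogeneic sample in Cy5 gave -1.18 and those with it in Cy3 gave -1.39.

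**Figure D2:**
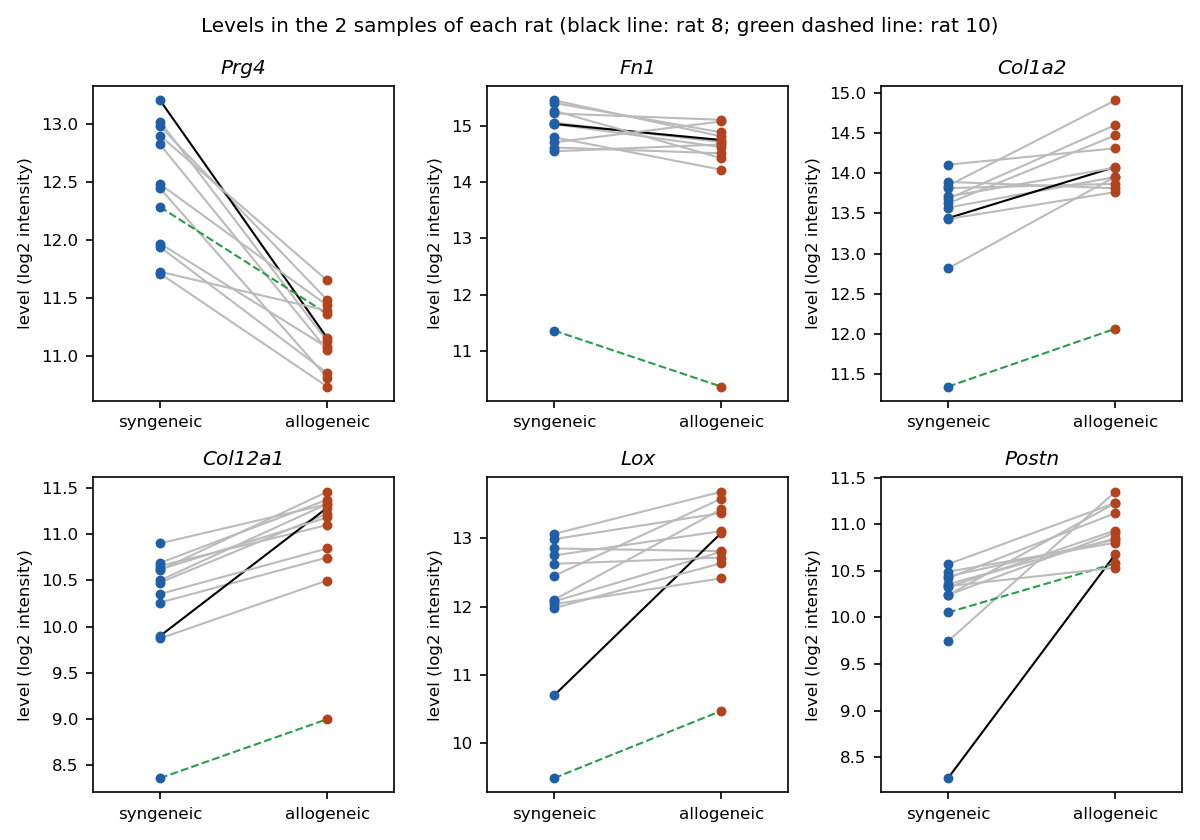
Levels (normalized log2 intensity) of 6 genes in the sample labelled syngeneic (blue) and the sample labelled allogeneic (red) of each of 12 rats, joined by a line. The black line is rat 8 and the green dashed line is rat 10, whose level includes the bright array. The lines of *Prg4* all fall and those of *Col12a1* and *Postn* all rise towards the sample labelled allogeneic.

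All 3 fibrillar collagen genes were higher in the samples labelled allogeneic. *Col1a2* encodes the second chain of type I collagen, the main collagen of the dermis. Its level ranged from 12.06 to 14.91 (median 14.01) in the samples labelled allogeneic and from 11.35 to 14.11 (median 13.65) in those labelled syngeneic, with the lowest value of both in rat 10. The ranges overlapped, but within rats the ratio was above 0 in 11 of 12, from -0.08 to 1.14, with a mean of 0.55 ± 0.40 (SD) and adjusted p = 0.0043. *Col5a3*, a chain of type V collagen, which is built into type I fibrils, had a mean of 0.52 ± 0.31, from 0.001 to 1.02, and was above 0 in 12 of 12 rats (adjusted p = 0.0015). *Col11a1* was measured by 2 probes, with nearly the same mean (0.28 for both) and adjusted p = 0.023 for the gene. The mean was 0.62 with the processed signals of the scanner software and 0.49 in the series table of the authors. The call was lost when the 12 arrays with Cy5 for the allogeneic sample were used alone (0.18, adjusted p = 0.11) and without rat 5 (0.26, adjusted p = 0.052).

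The other collagens were split. *Col12a1*, a collagen that lies on the surface of type I fibrils, was higher in 12 of 12 rats. Its ratios ranged from 0.42 to 1.39, the highest in rat 8, with a mean of 0.68 ± 0.26 (adjusted p = 1.01e-04) and nearly equal means in both dye orientations (0.71 and 0.65). *Col8a1*, a short-chain collagen of vessel walls and subendothelial matrix, ranged from 0.06 to 1.06 with a mean of 0.58 ± 0.30 (adjusted p = 4.9e-04). In contrast, *Col6a2*, *Col8a2* and *Col14a1* had means of 0.03, -0.005 and -0.01 and were not called. *Col6a2* ranged from -0.61 in rat 8 to 0.35, and *Col14a1* exceeded the background clearly (by the mark of the scanner software) on only 17 of 24 arrays in each channel.

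In the class of the basement membrane, 7 of 9 genes were higher and 0 lower. *Col18a1*, whose C-terminal fragment is endostatin, had the largest mean of the class, 0.38 ± 0.14, and a range of 0.24 to 0.66 (12 of 12 rats, adjusted p = 9.5e-05). Rat 8 was not the highest there (0.53), and median centring in place of loess gave a mean of 0.24 (adjusted p = 0.019). *Lamb2* followed with 0.36 ± 0.18 in 12 of 12 rats (adjusted p = 4.8e-04), from 0.18 to 0.87 in rat 8, with the doubt about the place of its probe given above. *Lamc1*, *Lama5* and *Lamb1*, the chains of laminin-511, had means of 0.29, 0.26 and 0.26 with adjusted p from 0.0015 to 0.015. For all 3 chains, rat 8 was the highest rat (0.62 to 0.72). Both probes of *Lama5* (0.23 and 0.29) and both of *Lamc1* (0.21 and 0.37) were called. *Lama1*, the chain of laminin-111, which is mainly embryonic, had a mean of -0.03 and was not called, and it exceeded the background in the allogeneic channel on 14 and in the syngeneic channel on 15 of 24 arrays.

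The nidogens, which link laminin to type IV collagen, were less clear. *Nid2* ranged from -0.19 to 0.96 with a mean of 0.35 ± 0.40 and was above 0 in 9 of 12 rats (adjusted p = 0.043). That call was lost without any 1 of rats 1, 2, 3, 4, 5, 6, 8, 9 or 10 (means 0.30 to 0.37, adjusted p = 0.053 to 0.081). *Nid1* was not called (0.10), and its probes gave means of 0.20 and -0.0048. *Col4a4*, a chain of type IV collagen, was called with a mean of only 0.09 ± 0.09 (adjusted p = 0.029). Its signal exceeded the background in the allogeneic channel on 13 and in the syngeneic channel on 8 of 24 arrays, and its mean was 0.35 with the processed signals (adjusted p = 0.097) and 0.06 with median centring (adjusted p = 0.43). The call was lost in 10 of 25 alternatives, among them without any 1 of rats 3, 4, 5, 7 or 9 (0.08 to 0.09, adjusted p = 0.051 to 0.066).

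Both lysyl oxidases and *Fbln5* were higher, and *Eln* was not called. *Lox*, the main cross-linking enzyme of collagen and elastin, had ratios from -0.04 to 2.38 with a median of 0.64, and the mean was 0.75 ± 0.65 (11 of 12 rats, adjusted p = 0.012). The highest value was that of rat 8, and without it the mean was 0.60. In rat 8 the *Lox* level was 13.08 in the sample labelled allogeneic, within the range of the rats other than 8 and 10 (12.41 to 13.68), and 10.70 in the sample labelled syngeneic, below their range (11.98 to 13.06). *Loxl2*, a related oxidase, had a mean of 0.39 ± 0.37 in 10 of 12 rats (adjusted p = 0.019), and *Fbln5*, which binds elastin during fiber assembly, had 0.31 ± 0.16 in 12 of 12 (adjusted p = 4.6e-04). Elastin itself, *Eln*, ranged from -0.10 to 0.17 with a mean of 0.03 (adjusted p = 0.49). Fibromodulin (*Fmod*), the only member beside *Prg4* in the class of proteoglycans, had a mean of 0.08 and was not called.

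Of the 4 adhesive and matricellular genes, 3 were higher and *Fn1* was lower. *Postn*, which encodes periostin, a protein of fibroblasts in wounds and fibrotic skin, had the largest mean of the 18 higher genes. Its ratios ranged from 0.20 to 2.40 with a median of 0.63 and a mean of 0.79 ± 0.62 (12 of 12 rats, adjusted p = 0.0065). Without rat 8 the mean was 0.65. As for *Lox*, it was the syngeneic level of rat 8 (8.28) that lay below those of the other rats (9.74 to 10.57), while its allogeneic level (10.68) lay within theirs (10.53 to 11.35). *Sparc* and *Thbs4* had smaller means of 0.25 and 0.28 (adjusted p = 0.0037 and 0.029). Median centring left *Sparc* at 0.16 (adjusted p = 0.12). The call of *Thbs4* was lost without any 1 of rats 1, 2, 3, 4, 6, 9, 10 or 11 (means 0.26 to 0.28, adjusted p = 0.055 to 0.063), although its 2 probes gave similar means (0.25 and 0.32).

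*Fn1*, the gene of fibronectin, was the only member apart from *Prg4* that was lower. The ratio was below 0 in 10 of 12 rats and ranged from -0.99 in rat 10 to 0.37 in rat 11, with a mean of -0.36 ± 0.39 (adjusted p = 0.035). The levels overlapped, from 10.37 to 15.10 in the samples labelled allogeneic and from 11.36 to 15.45 in those labelled syngeneic. The lowest value of both was that of rat 10, whose level includes its bright array 1. Without array 1 of rat 10 the mean was -0.30 (adjusted p = 0.037). The call was lost with the slide as a block (adjusted p = 0.055) and by the exact signed-rank test (0.073). A plain one-sample t-test on the 12 rat means, without limma, lost it too (adjusted p = 0.054). It was also lost without any 1 of rats 1, 2, 5, 6, 7, 9 or 10 (means -0.36 to -0.30, adjusted p = 0.055 to 0.076).

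Of the 28 genes, 9 had the same sign in all 12 rats, 8 above and 1 below 0, whereas 5.89% of all genes had 1 sign in all rats. Every one of the 18 higher genes had a mean above 0 on each of the 3 slides. They had been called on the mean of these same rats, which makes such slide means likely, so this is no separate support. Between rats, the median ratio of the 28 genes ranged from 0.01 in rat 12 to 0.53 in rat 8, while the median of all genes lay between 0.0016 and 0.024. The ratios of *Prg4*, *Col1a2* and *Lox* were also related across the 12 rats in 3 relations. *Col1a2* and *Lox* had Pearson's r = 0.47 and Spearman's rho = 0.65 (permutation p = 0.12 and 0.025, adjusted 0.17 and 0.075), and r was 0.55 without the 2 rats farthest from the median of *Col1a2* and 0.68 without rat 8. *Prg4* had r = -0.32 and rho = -0.43 with *Col1a2* (permutation p = 0.30 and 0.17, adjusted 0.30 and 0.17), and r was -0.30 without 2 rats and -0.33 without rat 8. With *Lox* it had r = -0.49 and rho = -0.50 (permutation p = 0.10 and 0.11, adjusted 0.17 and 0.16), and r was -0.13 without 2 rats and -0.21 without rat 8 alone. No relation passed the adjustment. Within slides of 4 rats, r was 0.93, 0.18 and 0.62 for *Col1a2* with *Lox*, -0.74, -0.53 and -0.69 for *Prg4* with *Col1a2*, and -0.63, -0.75 and -0.17 for *Prg4* with *Lox*.

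**Figure D3:**
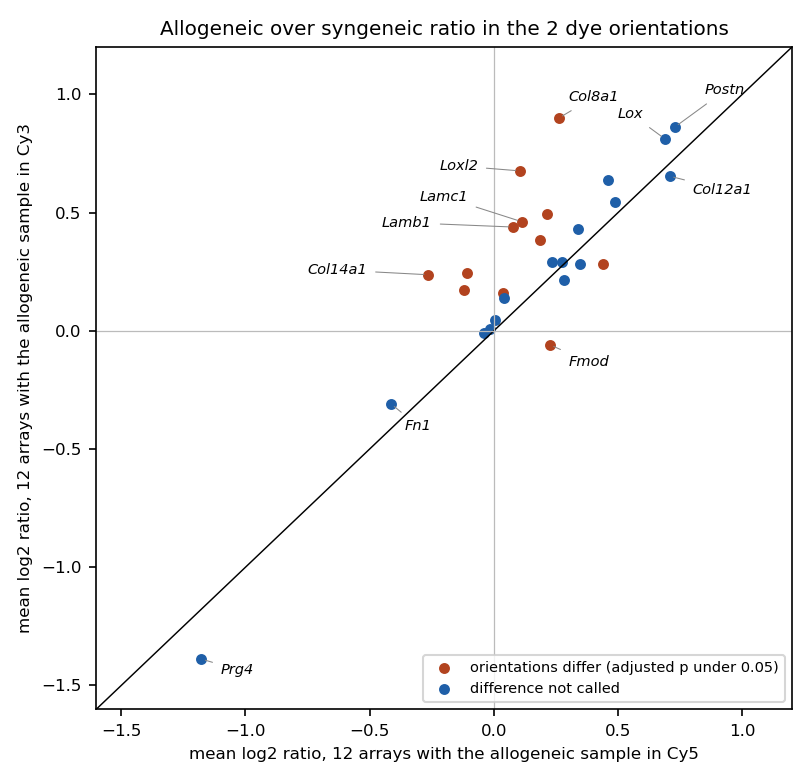
Mean log2 ratio of the 28 genes over the 12 arrays with the allogeneic sample in Cy5 (horizontal axis) and the 12 with it in Cy3 (vertical axis), with the line of equality. Red points are the 12 genes whose orientations differed by limma. *Prg4* and *Fn1* are below 0 and *Postn*, *Lox* and *Col12a1* above 0 in both, whereas *Col14a1* is below 0 in one and above 0 in the other.

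The dye mattered for the size of several of these ratios. In 12 of the 28 genes the ratio differed between the orientations (limma, adjusted over all genes), a share not above that over all genes, 51.9%. *Col8a1* had a mean of 0.26 with the allogeneic sample in Cy5 and 0.90 with it in Cy3 (adjusted p of the difference 2.6e-04). For *Loxl2* the means were 0.10 and 0.68, for *Lamb1* 0.08 and 0.44, and for *Lamc1* 0.11 and 0.46. None of these 4 genes was called on the Cy5 arrays alone (adjusted p = 0.073 to 0.58), nor was *Nid2* (0.21, adjusted p = 0.16), and all 5 were on the Cy3 arrays. The *Lamc1* probe shown above gave 0.0021 and 0.41, and the other *Lamc1* probe 0.22 and 0.51. The averages over both orientations used here cancel a dye effect that is equal in both. *Col14a1* had opposite signs, -0.26 and 0.24, each called on its own (adjusted p = 0.0067 and 0.016). Opposite signs were found in 5 of the 28 genes, of which 0 were called. A call was made on the mean of both orientations, which makes opposite signs unlikely in a called gene.

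Further genes of the matrix and its receptors were compared by lists. Of 25 other matrix genes, 9 were higher and 0 lower, with a median of 0.16. The largest were *Tnn* (0.55), *Tgfbi* (0.53), *Ccn4* (0.47), *Ccn2* (0.46) and *Ltbp1* (0.44). *Tgfbi* and *Ccn2* are genes that TGF-beta is known to induce, and *Ltbp1* stores latent TGF-beta in the matrix. A part of TGF-beta in the ratios of these or other matrix genes was not tested. Osteopontin (*Spp1*) and versican, named *Cspg2* on the array, had the lowest means of that list, -0.81 and -0.45, and were not called (adjusted p = 0.11 and 0.095). Of 20 receptors, 6 were higher and 1 lower, with a median of 0.07. *Itgb6* (0.41), *Itga7* (0.37), *Itgb4* (0.31) and *Itga2* (0.28) were the largest, while *Itgb3* was lower with a mean of -0.10. For the list of enzymes of collagen synthesis, 0 of the 28 names searched were found among the gene names of the array, so that it gave no value.

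**Figure D4:**
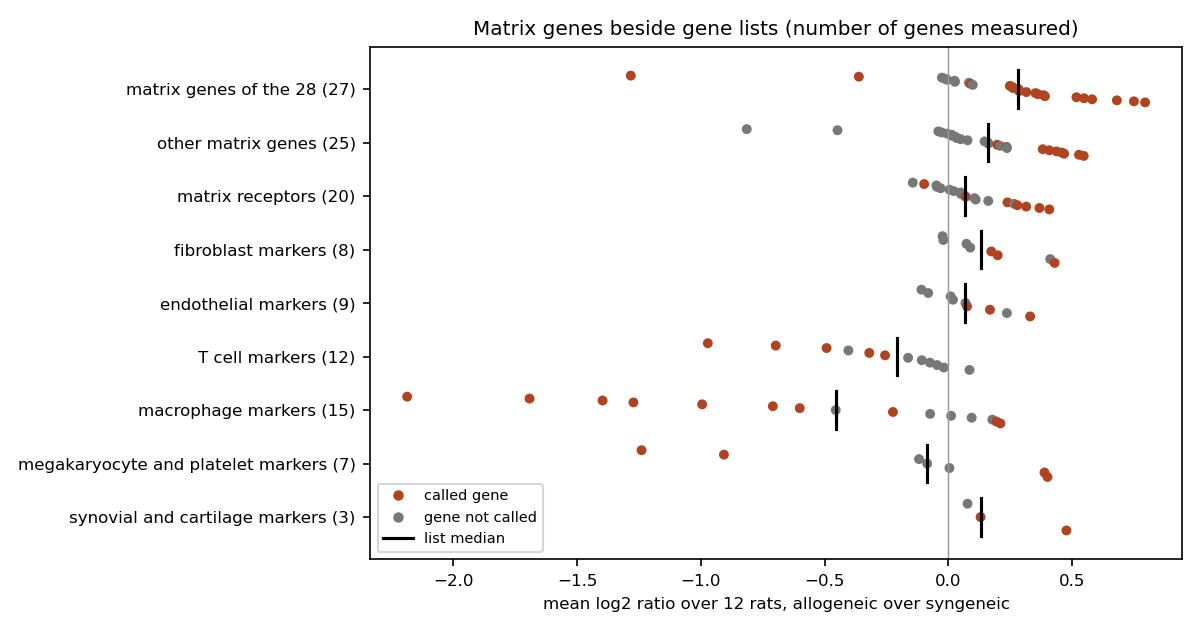
Mean log2 ratio over 12 rats of each measured gene, in rows for the 27 matrix genes and for the lists of other matrix genes, receptors and cell markers. Red points are called genes, gray points are genes not called, and the black bar is the median of the row. Most points of the matrix rows lie above 0, and most of the T cell and macrophage rows lie below 0.

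Markers of other cells were compared in the same way, and the lists differed in direction. Of 8 fibroblast markers, 3 were higher and 0 lower (*Pdgfrb* 0.43, *Pdpn* 0.20 and *Twist1* 0.17), with a median of 0.13 and a mean level per rat of 8.81 to 9.83 in the samples labelled allogeneic and 8.60 to 9.70 in those labelled syngeneic. Of 15 macrophage markers, 8 were lower and 2 higher with a median of -0.46, and the mean level was 10.06 to 11.12 and 10.57 to 11.86. *Fcgr3a* (-2.19), *Trem2* (-1.69), *Ctss* (-1.40), *Aif1* (-1.27) and *Fcgr2b* (-0.99) were the lowest. The study had already reported these lowest genes as regulated on these arrays, and the list was chosen with earlier results known. *Tyrobp* (-0.71), *Itgam* (-0.60) and *Csf1r* (-0.22) were also lower, while *C1qa* (0.21) and *C1qc* (0.19) were higher. *Mrc1* (-0.46), *Adgre1* (-0.07), *Cd14* (0.01), *C1qb* (0.09) and *Cd163* (0.18) were not called. Every gene of the macrophage list exceeded the background on at least 18 arrays. Of 12 T cell markers, 5 were lower and 0 higher with a median of -0.21, and the mean level was 7.67 to 8.33 and 7.86 to 8.64. They were *Cd5* (-0.97), *Lck* (-0.70), *Cd8b* (-0.49), *Cd8a* (-0.32) and *Cd2* (-0.26). The chains of the CD3 complex, *Cd3d*, *Cd3e* and *Cd3g*, were not called (-0.40 to -0.11). Nor was *Cd247* (-0.07), the *Cd3z* of the study's PCR. *Cd28* exceeded the background on only 2 arrays. The part of these cells in the ratios of the matrix genes, *Prg4* and *Fn1* included, was not tested.

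*Prg4* was also set beside markers of synovium, cartilage and platelets. Only 3 of the 12 markers of synovium and cartilage searched were measured. *Clu* (0.48) and *Sox9* (0.13) were higher and *Comp* was not called (0.08). The cells from which the *Prg4* signal came were not tested. Of 7 markers of megakaryocytes and platelets, *Nfe2* (-1.24) and *Pf4* (-0.91) were lower and *Ppbp* (0.40) and *Gp1bb* (0.39) were higher. Of 9 endothelial markers, 3 were higher (*Cdh5* 0.33, *Pecam1* 0.17 and *Flt1* 0.08) and 0 lower, with a median of 0.07.

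Promoters were looked up for all 28 genes, called or not, and 18 of the 28 matched a RefSeq promoter of the GRCr8 build. The 250 bases before the annotated start of *Postn*, the gene with the largest mean of those that were higher, lie at chr2:140677811-140678060 on the plus strand. Capitals mark TATAAA (forward strand only) and CAGAC (either strand), the core letters of SMAD binding.
Postn promoter: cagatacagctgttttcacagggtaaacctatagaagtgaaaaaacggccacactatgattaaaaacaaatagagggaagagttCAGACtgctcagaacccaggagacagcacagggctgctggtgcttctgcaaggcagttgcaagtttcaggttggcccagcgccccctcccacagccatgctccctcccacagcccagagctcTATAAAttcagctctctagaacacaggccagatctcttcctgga

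The letters TATAAA were found in 2 of the 18 promoters, *Col1a2* and *Postn*, and in 8.06% of 33469 promoters of the same length. CAGAC was found in 12 of 18 (66.7%) and in 42.9% of all. CCAAT on either strand was in 6 of 18 and in 34% of all, *Prg4* and *Col1a2* among the 6. The AP-1 letters TGANTCA were in 0 of 18 and in 6.34% of all. A match of letters says nothing about binding in these explants.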

How the data were processed

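Expression was measured in paw skin explants of 12 BN rats with 24 two-color Agilent arrays on 3 slides (8 arrays and 4 rats on each). Per the file headers, the deposited scanner files hold mean spot intensities and median local background intensities in Cy3 and Cy5, extracted by Feature Extraction 9.5.1.1 without normalization, and processed intensities that the software had corrected for background and dye. The methods name an earlier version of that software, and the amplification kit differs between labels and methods. The authors also deposited a table of log2 ratios, 1 column per array. Its scale was taken as log2 and its columns as already turned, since all 24 correlated positively (0.70 to 0.96) with the turned processed ratios. Its column medians were -0.027 to 0.048. The sample titles read stimulated versus non-stimulated for every column, without naming the dyes. The background treatment is not stated.

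Intensities were corrected by normexp (offset 50) and normalized by loess within arrays, with no weight for 536 control spots and for outlier spots (161 to 228 per array), which were then left out. Arrays with exchanged dyes were turned, each probe's spots and both arrays of a rat were reduced to their mean, and the 12 rat values were tested against 0 by limma 3.58.1 in R 4.3.3 with Benjamini-Hochberg adjustment over 8453 probes or 7229 genes. Both samples of a rat lie on 1 array, so that the comparison is within rats. Correlations carry two-sided permutation p-values with 100000 resamples, adjusted over 3 relations. Levels are log2 intensities per channel after loess and quantile normalization of the average intensities between arrays. Between 74.8% and 99.9% of probe spots of an array were well above background, and the number of arrays limits the precision.

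Members, classes and lists were chosen with earlier results of these data known. *Prg4*, the called members (10 in a direction by size and the first of each class), the largest member of a class without a call, and up to 5 called genes of a list were to be named. The remaining members, and the printed probes of *Lamb1* and *Lamc1*, are named outside that rule. Scripts were tested on simulated data. Alternatives concerned background, normalization, dyes, dim probes (a minimum of 12 of 24 arrays well above background), outlier spots, slide, test, series table, probes of a gene and each rat. Leaving out rat 8 together with array 1 of rat 10 was added after seeing the data, and so was the test between the dye orientations.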

Additional observations from a re-analysis of the deposited data

How the results depend on the processing

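The number of called genes among the 28 lay between 15 (allogeneic sample in Cy5 only) and 22 (in Cy3 only) over the alternatives, and between 16 and 20 when each rat in turn was left out. For the 33 probes it lay between 19 and 25, and between 18 and 24 without single rats. All 3 fibrillar collagen genes were called in each alternative except with Cy5 only and without rat 5 (2 each). *Prg4* was called in all 26 alternatives (-1.39 to -1.18), with -1.37 to -1.21 without single rats. *Col1a2*, *Col5a3*, *Col12a1*, *Col18a1*, *Fbln5*, *Lama5*, *Lamb2*, *Lox* and *Postn* also kept their call in all of their alternatives. Beside the losses given above, *Sparc* was not called with median centring (0.16, adjusted p = 0.12). *Nid2* was not called with median centring, Cy5 only, the plain t-test on rat means and the signed-rank test (adjusted p = 0.060 to 0.16). *Loxl2* was not called by the signed-rank test (adjusted p = 0.060). With Cy5 only, *Col8a1*, *Lamb1*, *Lamc1* and *Loxl2* were not called (adjusted p = 0.073, 0.47, 0.10 and 0.58). *Col14a1* turned its sign with Cy3 only (0.24). *Col4a3bp*, 0.07 with all rats, was -0.088 without rat 8 and -0.086 without rat 8 and array 1 of rat 10, where it was called lower (adjusted p = 0.031 and 0.033). Its value in rat 8 was 1.78. The cause of these changes was not tested. No separate paired analysis was possible because both samples of a rat lie on each of its arrays, so that every fit already is within rats. Signal over background limits *Col4a4*, *Lama1* and *Col14a1*.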
